A study of Mus musculus with 6 samples.

Results

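Knockdown of Dnmt3b in mouse embryonic stem cells was compared with a control knockdown at 515661 autosomal cytosines. These were all the autosomal CpG cytosines with a methylation level in both libraries, matched on chromosome, position and strand. They make up 70.3% of the 733102 autosomal cytosines listed in any of the 6 libraries of the study, which lists 750150 cytosines in all. The cells were E14 embryonic stem cells, a line grown from the inner cell mass of the mouse embryo, and carried a short hairpin RNA (shRNA) either as a control (shControl) or against Dnmt3b (shDnmt3b). The other groups carried shRNAs against Dnmt1, against Dnmt3a, against Dnmt3a and Dnmt3b together, or against Tet1 and Tet2 together. Methylation was read by reduced representation bisulfite sequencing (RRBS), which cuts DNA with the enzyme MspI at CCGG and so samples CpG-rich DNA. The level of a cytosine is the percentage read as methylated, and a difference is shDnmt3b minus shControl in percentage points.

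DNMT3B is one of the enzymes that place methyl groups on previously unmethylated CpG sites, together with its relative DNMT3A. It is known for methylating the bodies of transcribed genes, to which it is drawn by a histone mark of elongating transcription, and, in early embryos, promoters of germline genes and CpG islands of the inactive X chromosome. Biochemical work has described a preference of DNMT3A for CpG sites followed by a pyrimidine and of DNMT3B for those followed by a purine. Bisulfite reads 5-hydroxymethylcytosine as methylated too. Transcript and protein levels of Dnmt3b were not analysed here, so the depth of the knockdown is unknown in these data. Each group is 1 library. No difference between the groups has a replicate error and none was tested. Means carry an SD over autosomes, which is a spread along the genome and not between cultures.

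The Dnmt3b library did not have less methylation than control. Over the 515661 cytosines the control library averaged 32.1% and the Dnmt3b library 32.6%, a difference of 0.474 ± 0.125 points (SD over 19 autosomes), above 0 on 19 of 19 autosomes. Of the cytosines, 37.8% were at 0 in both libraries and 39.4% had equal levels, so the median difference was 0. The middle of the distribution was narrow: its 5th percentile lay at -10 points and its 95th at 12.1 points. The 1st and the 99th lay at -21.2 and 23.8 points, so the upper tail was the longer one at both depths.

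The size of the difference followed the level of methylation. Cytosines were classed by the mean of both libraries, so that neither library alone set the class. The 82377 partly methylated cytosines, between 20% and 80%, averaged 55.8% in control and 57.5% in the Dnmt3b library, 1.74 ± 0.59 points higher. At the 304492 low cytosines, under 20%, the means were 1.40% and 1.59%, a difference of 0.191 ± 0.062 points. At the 128792 high ones, over 80%, they were 89.6% and 89.9%, a difference of 0.333 ± 0.134 points. Each class was above 0 on 19 of 19 autosomes. With cytosines classed by the Dnmt3a library instead, the high class stood at 0.027 ± 0.156 points and the partly methylated class at 1.01 ± 0.33 points. In bins of 10 points the difference was greatest between 30% and 40%, at 2.69 ± 1.09 points, and smallest below 10%, at 0.108 ± 0.034 points. It stood at 0.899 ± 0.509 points between 70% and 80% and at 0.217 ± 0.135 points above 90%.

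The other knockdowns were set against the same control library, so their differences share its errors with those of Dnmt3b. At the same partly methylated cytosines, as far as each library listed them, the Dnmt3a library differed from control by -14.5 ± 0.5 points. The double Dnmt3a and Dnmt3b library differed by -10.4 ± 0.8 points and the Tet1 and Tet2 library by 6.55 ± 0.32 points. Of the 3 libraries with an shRNA against a de novo enzyme, Dnmt3b alone was the one whose mean lay above control.

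**Figure D1:**
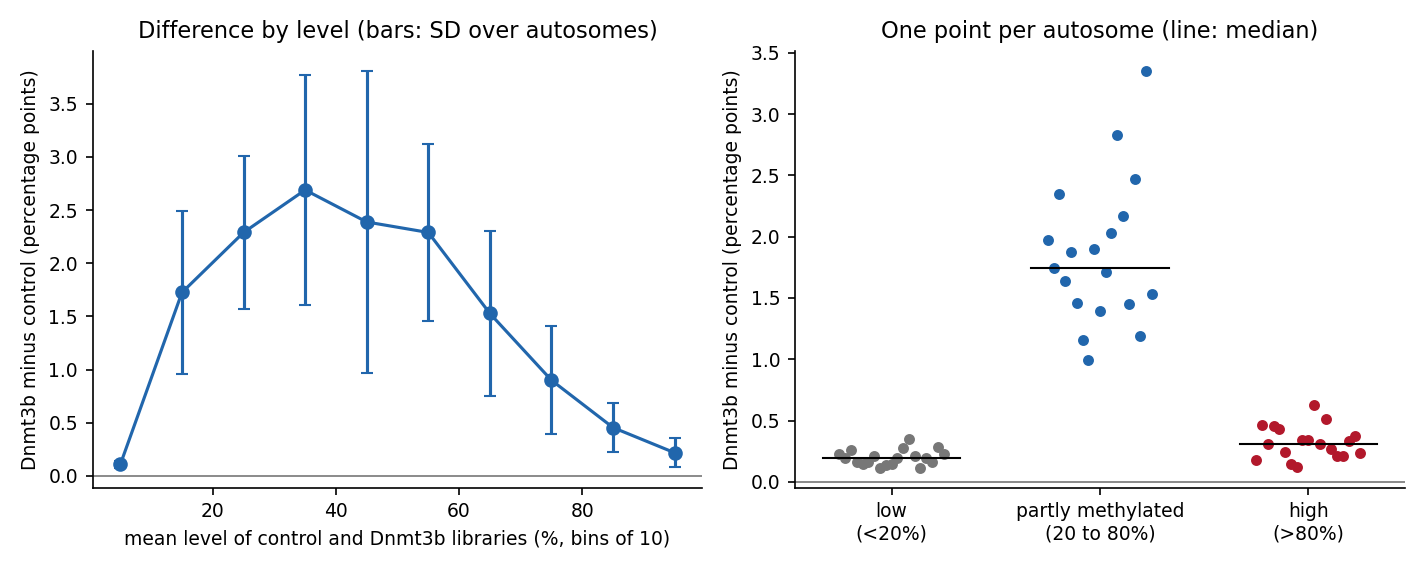
Left, mean difference (shDnmt3b minus shControl, percentage points) against the mean level of both libraries in bins of 10%, with bars for the SD over 19 autosomes; it peaks at 2.69 points between 30% and 40%. Right, the difference on each autosome in 3 level classes with the median as a line; all points lie above 0, and the partly methylated class runs from 0.996 to 3.35 points.

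Large differences at single cytosines were few and ran both ways. The Dnmt3b library was lower by at least 20 points at 6307 cytosines (1.22% of those compared) and higher by as much at 8963 (1.74%). The surplus of higher over lower grew with size, from 1.29 higher cytosines per lower one at 5 points to 1.77 at 50 points, where 184 were higher and 104 lower. Differences of this size are also seen between the strands of a CpG within 1 library. At the 1794 partly methylated CpG sites with both strands listed, the plus and the minus strand differed by an SD of 15.7 points in control and 15.2 points in the Dnmt3b library. On 1 strand of these sites, the libraries differed by an SD of 13.8 points. The strands lay closer at low CpG sites, with SDs of 3.75 and 3.32 points in control and the Dnmt3b library, and at high ones, with 8.62 and 9.05 points.

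With the strands of these 1794 sites averaged, the mean was 0.052 points with an SD of 10.5 points. By at least 20 points, 48 sites were lower and 50 higher. Averaging lowers the SD but cannot change the mean, so the small mean belongs to this set of sites. Of these sites 96.8% were MspI sites, which are cut and so open a read on each strand. Neighbouring cytosines moved together mostly where 1 read can cover both. Over pairs of partly methylated cytosines on the same strand, the differences correlated with r = 0.454 at 1 to 5 bp (5193 pairs), 0.429 at 6 to 20 bp and 0.389 at 21 to 50 bp. From 51 bp on, the same strand gave 0.0894 to 0.148, and opposite strands gave 0.0858 to 0.171 at every distance up to 1000 bp. These pairs share libraries and reads and are a description only.

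The difference also depended on the sequence around the CpG. At CCGG, the MspI site, 38994 cytosines averaged 58.1% in control and 58.6% in the Dnmt3b library, a difference of 0.560 ± 0.621 points, above 0 on 17 of 19 autosomes. At the 43383 cytosines outside MspI sites the means were 53.8% and 56.6%, a difference of 2.79 ± 0.67 points on 19 of 19 autosomes. The contrast held side by side: 17701 MspI cytosines with a partly methylated neighbour within 50 bp on the same strand differed by 1.01 points, and those neighbours by 3.14 points. High cytosines had the same order, 0.070 ± 0.156 points at MspI sites and 0.643 ± 0.191 points outside, as had low cytosines, with 0.055 ± 0.112 and 0.228 ± 0.056 points. MspI sites are the ends of the sequenced fragments, and the part of fragment ends in this contrast was not tested.

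The base after the CpG also ordered the differences outside MspI sites. Partly methylated cytosines followed by CpG then A were higher by 1.75 ± 0.99 points, then G by 2.59 ± 0.92 points, then T by 3.06 ± 0.79 points and then C by 3.67 ± 0.89 points. Neighbours in this order differ by less than their SD over autosomes. Their control levels differed as well, from 50.7% (C) to 55.8% (T), yet the order A, G, T, C was the same within levels of 20% to 40%, 40% to 60% and 60% to 80%. Between 40% and 60%, for example, A gave 2.26 ± 1.53 points and C gave 4.59 ± 1.75 points. In the high class A was again lowest, at 0.288 ± 0.388 points, and T and C stood at 0.857 ± 0.416 and 0.830 ± 0.262 points.

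Of 60 sequences of 5 bases centred on the cytosine outside MspI sites, 57 had a mean above 0 at partly methylated cytosines and 3 had one below. The 3 are shown first and the 3 with the greatest means after them, to show that both ends differ in the base after the CpG, given in capitals with the CpG.

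lowest 1: atCGA
lowest 2: ttCGA
lowest 3: atCGG
highest 3: acCGC
highest 2: ttCGC
highest 1: taCGC

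The lowest was ATCGA, with 401 cytosines and -1.22 ± 2.98 points, followed by TTCGA at -0.66 ± 4.49 and ATCGG at -0.16 ± 2.61 points. TACGC was highest at 5.97 ± 6.16 points over 173 cytosines, then TTCGC at 5.48 ± 3.41 and ACCGC at 5.29 ± 2.75 points. TTCGA and TTCGC share every base but the last, and stood at 59.1% and 51.03% in control and at 58.4% and 56.5% in the Dnmt3b library. The 3 highest end in C and the 3 lowest in a purine. The 3 lowest also share a T before the CpG. Sequences between these ends did not all follow the last base: GGCGG, with 1990 cytosines, stood at 4.61 ± 2.44 points and AACGC at 1.91 ± 2.88 points. The SD of the 3 lowest and of TACGC exceeds their mean.

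**Figure D2:**
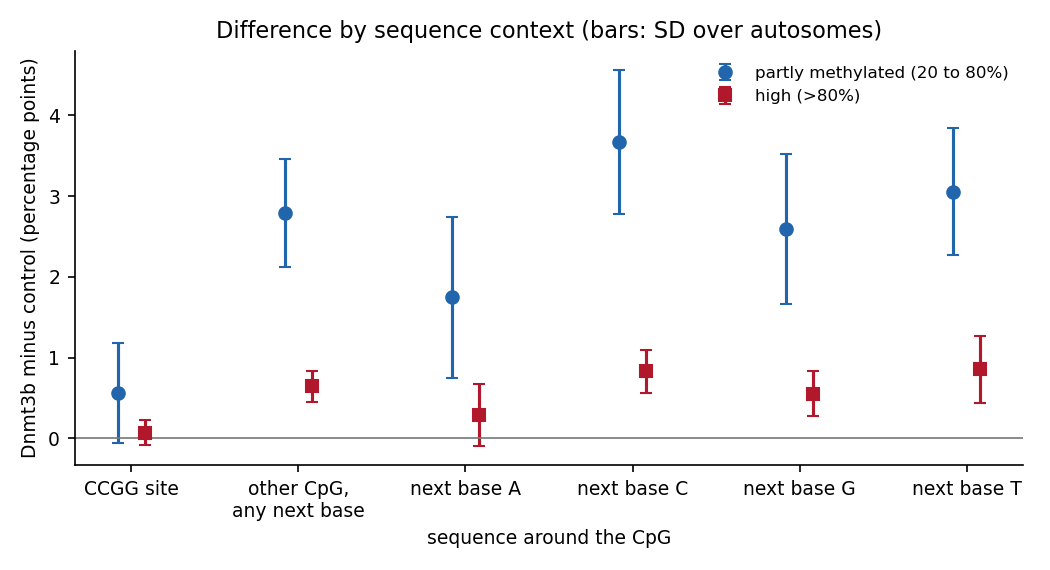
Mean difference (shDnmt3b minus shControl, percentage points) by sequence: MspI sites, other CpG sites together, and other CpG sites by the next base, for partly methylated (circles) and high (squares) cytosines, with bars for the SD over 19 autosomes. MspI sites lie nearest 0 in both classes, and CpG then A is the lowest of the next bases.

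The number of other CpG sites within 50 bp made little difference once MspI sites were set apart. Outside MspI sites the means ran from 2.63 ± 0.53 points with 1 listed neighbour to 3.03 ± 1.78 points with 5 or more. The 265 cytosines with no listed neighbour stood at 4.26 ± 6.54 points. At MspI sites the means lay between 0.244 and 0.801 points.

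Position relative to gene starts was read from 7299 promoters of 6576 genes that could be placed on mm9 through the listed cytosines. No promoter on chromosome 18 was placed, so these values cover 18 autosomes. Partly methylated cytosines within 250 bp of a placed start had the greatest mean difference: 1001 cytosines stood at 41.2% in control and 45.9% in the Dnmt3b library, 4.61 ± 2.43 points higher and above 0 on 17 of 18 autosomes. MspI sites made up 28.9% of them, against 47.8% farther than 50000 bp from a start, where control stood at 57.1%. Within 250 bp the difference was 5.86 ± 3.29 points outside MspI sites and 1.55 ± 3.49 points at them. Between 250 and 1000 bp past the start the difference was 2.47 ± 3.72 points. It then fell below 0: between 1000 and 2000 bp past the start, 1077 cytosines averaged 48.9% in control and 47.3% in the Dnmt3b library, -1.58 ± 2.43 points, with 6 of 18 autosomes above 0.

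From there the difference climbed with distance past the start. It was -0.51 ± 2.00 points between 2000 and 5000 bp, 0.254 ± 1.949 points between 5000 and 10000 bp, 0.459 ± 1.025 points between 10000 and 20000 bp and 1.51 ± 0.74 points between 20000 and 50000 bp. Farther than 50000 bp from any placed start, on either side, it was 2.14 ± 0.49 points. The side before the start had no such dip below 0: between 1000 and 2000 bp upstream the mean was 0.916 ± 4.150 points and between 2000 and 5000 bp 1.29 ± 2.45 points. These upstream means, too, lay below the value farther than 50000 bp away. Means near starts are uneven between autosomes, and the dip is smaller than its SD.

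The dip was deeper at MspI sites, where 485 cytosines averaged 51.1% and 47.7%, a difference of -3.49 ± 2.57 points with 3 of 18 autosomes above 0. Outside MspI sites 592 cytosines stood at -0.02 ± 2.89 points, with 11 of 18 autosomes above 0, against 2.61 ± 1.10 points for such cytosines between 20000 and 50000 bp. At MspI sites that far away the mean was 0.315 ± 0.942 points. Both kinds of site were thus lower 1000 to 2000 bp past a start than far from one. Low cytosines between 1000 and 2000 bp past a start had a difference of -0.26 ± 0.38 points, with 4 of 18 autosomes above 0, and stood at 0.310 ± 0.105 points farther than 50000 bp away. The 361 high cytosines there stood at 0.948 ± 2.184 points, so the dip was not seen in that class.

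Parts of the profile were seen in other libraries as well. The other libraries are given over the same cytosines and share the control library. Between 1000 and 2000 bp past a start and farther than 50000 bp away, the Dnmt3a library differed from control by -15.7 and -14.1 points. The Tet1 and Tet2 library differed by 5.66 and 6.41 points, and the double knockdown by -13.9 and -9.24 points. Within 250 bp of a start these libraries differed by -13.8, 5.28 and -10.4 points, in the order Dnmt3a, Tet1 and Tet2, double knockdown. Between 250 and 1000 bp past it they differed by -15.3, 5.22 and -14.7 points in the same order. Between 1000 and 2000 bp upstream they differed by -15.8, 7.40 and -13.2 points, again in that order. In the Dnmt3a and double libraries, too, the start thus stood higher than 250 to 1000 bp past it. In these libraries the value 1000 to 2000 bp past it was lower than far away, and so was the upstream value. The same was true of the Dnmt3b library, at -1.58 points past the start and 0.916 points upstream against 2.14 points far away. In the double library the start itself lay below the value far away, at -10.4 against -9.24 points.

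**Figure D3:**
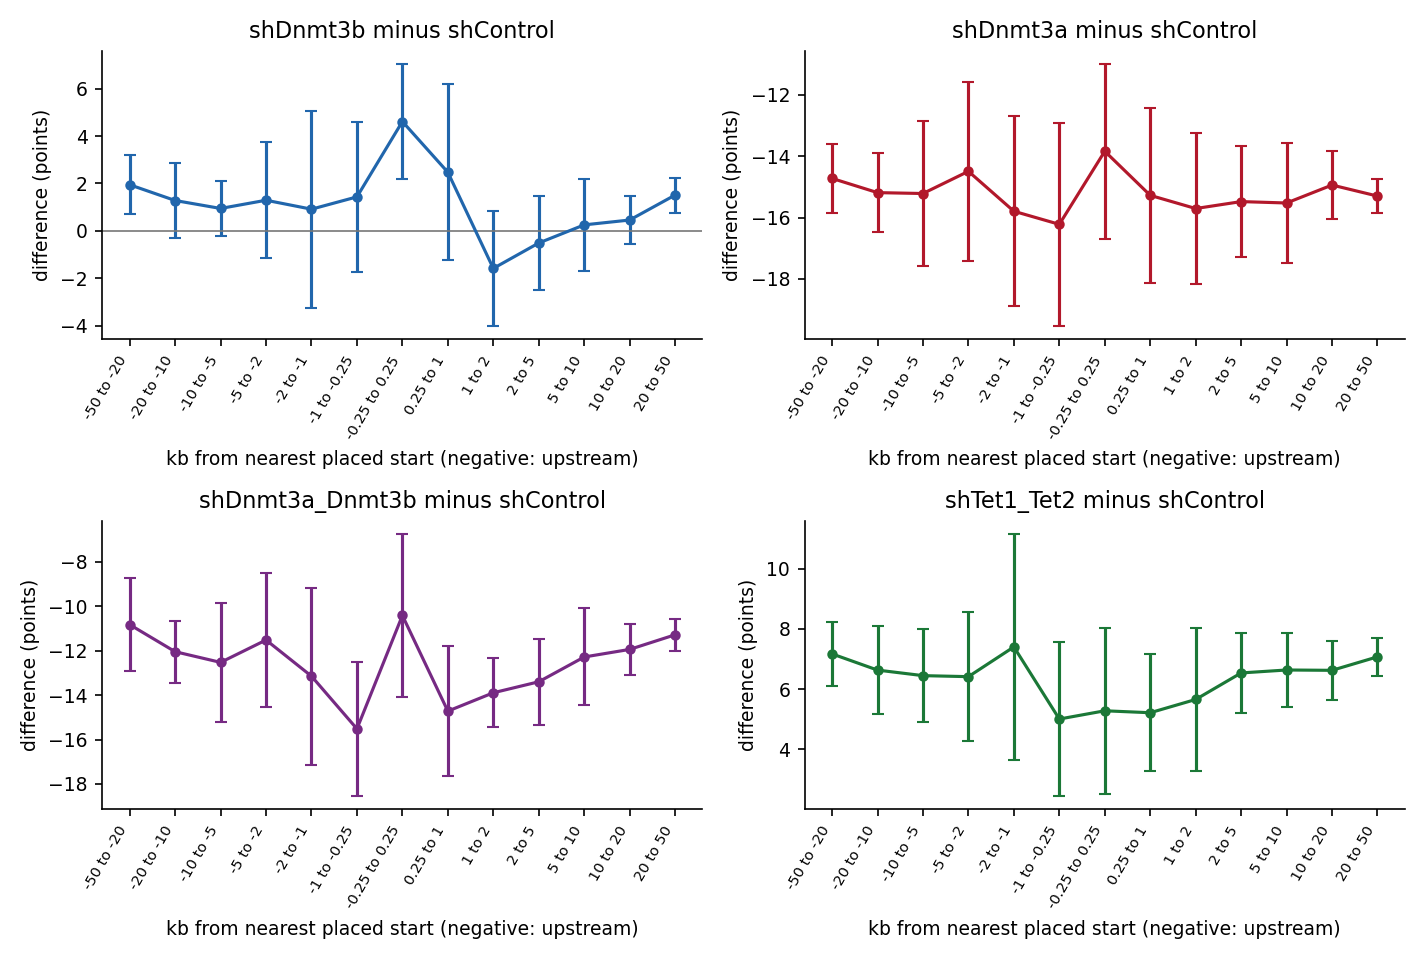
Mean difference from shControl (percentage points) at partly methylated cytosines by distance from the nearest placed start in kb (negative is upstream), for 4 knockdowns on separate vertical scales that do not all include 0, with bars for the SD over autosomes. The shDnmt3b panel peaks at 4.61 points around the start and lies below 0 from 1 to 5 kb past it.

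Gene bodies as a whole showed a smaller form of the same pattern. The 18951 partly methylated cytosines at least 1000 bp past a placed start and within that gene's RefSeq length averaged 56.6% in control and 57.4% in the Dnmt3b library, 0.805 ± 0.700 points higher. Elsewhere 61071 cytosines averaged 55.6% and 57.5%, 1.96 ± 0.49 points higher. MspI sites made up 47.1% and 47.3% of the 2 sets. High cytosines had the reverse order, 0.469 ± 0.250 points in gene bodies and 0.296 ± 0.129 points elsewhere. Genes without a placed start count as elsewhere. At the partly methylated cytosines the Dnmt3a library differed from the same control by -15.1 points in gene bodies and -14.4 points elsewhere, and the double library by -11.2 and -10.2 points. The lower value in gene bodies was thus seen in these libraries as well.

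Single genes were examined 1000 to 5000 bp past the start, a choice made after the profile had been seen. Of 218 genes with at least 5 partly methylated cytosines there, 120 (55.0%) were lower in the Dnmt3b library, and the median was -0.875 points with an SD over genes of 6.98 points. On the upstream side the count was 64 of 139 genes (46.0%), with a median of 0.820 points. Some genes stand next to each other and share cytosines: the 218 genes hold 214 sets that differ in their first or last cytosine. Some of these sets still overlap. Cytosines are also shared between the sides, which are therefore not separate sets. The 10 cytosines past the start of Hras, for example, are those upstream of Lrrc56, and the 8 past the start of Sphk2 are those upstream of Rpl18. By at least 10 points, 19 genes (8.72%) were lower and 16 (7.34%) were higher, so the spread between genes ran both ways.

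Among the genes with lower levels, Gcc1, which encodes a golgin of the trans-Golgi network, had the greatest difference: 6 cytosines averaged 62.8% in control and 37.5% in the Dnmt3b library. Lrpprc, which encodes an RNA-binding protein that stabilises mitochondrial transcripts, went from 63.7% to 47.4% over 11 cytosines, all 11 lower. Hras, the small GTPase and proto-oncogene, went from 59.0% to 44.9% over 10 cytosines, all 10 lower. Snx11, a sorting nexin, went from 49.2% to 36.7% over 8 cytosines, all 8 lower. Others were Zfp513 (-15.1 points), Snx17, another sorting nexin (-13.7 points), Zfp408 (-12.3 points), the kinase gene Lmtk3 (-12.2 points), the intraflagellar transport gene Ift27 (-12.1 points) and the sphingosine kinase gene Sphk2 (-10.9 points). In 15 of the 218 genes every one of these cytosines was lower. The 5 cytosines of Zfp513 are among the 7 of Snx17, so their falls are not separate.

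Among the genes with higher levels, Hoxa5, a homeobox gene of anterior-posterior patterning, went from 26.0% to 47.0% over 5 cytosines. Vstm2a, whose product is a secreted immunoglobulin-like protein, went from 41.6% to 59.97% over 18 cytosines, 15 of them higher. Npas1, a transcription factor gene of interneurons, went from 22.8% to 36.1% over 11 cytosines, and Gria2, an AMPA receptor subunit gene, from 28.1% to 41.8% over 5. In 12 of the 218 genes every cytosine was higher. These genes were picked for extreme values out of a spread that ran both ways, which makes their differences larger than a second experiment would likely give.

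Along the genome the gain was broad and uneven. Over partly methylated cytosines the autosomes ran from 0.996 points on chromosome 8 to 3.35 points on chromosome 18, with a median of 1.75 points. Of 500 windows of 1 Mb with at least 50 such cytosines, 105 (21%) were below 0. The median window was at 1.66 points and the SD over windows 2.32 points. The windows furthest above stood farther from the median than those furthest below.

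The lowest window was on chromosome 17 from 57000001 to 58000000, with 56 cytosines at 62.2% in control and 58.0% in the Dnmt3b library. It holds the starts of Clpp, a mitochondrial protease gene, of Crb3, a cell polarity gene, of Khsrp, an RNA-binding protein gene, and of Tubb4a, a tubulin gene. The next, chromosome 2 from 174000001 to 175000000, stood at 54.1% and 50.1% over 111 cytosines. There, 71 cytosines lay in 1 stretch of 20 kb from 174120001 to 174140000, at 53.3% in control and 45.9% in the Dnmt3b library, and the other 40 were higher by 2.27 points. In RefSeq's gene order Gnas, an imprinted gene, lies near Ctsz, a lysosomal protease gene whose start was placed in this window. No start of Gnas was placed in it, so the stretch was not assigned to that gene. In the other libraries the stretch averaged 49.4% (Dnmt3a), 49.2% (double) and 45.7% (Tet1 and Tet2), so control was the highest of these 5 libraries. The third lowest, on chromosome 8 from 28000001 to 29000000, stood at 60.7% and 57.3% over 52 cytosines.

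The highest window lay on chromosome 18 from 76000001 to 77000000, where 73 cytosines averaged 46.1% in control and 57.3% in the Dnmt3b library and 79.5% of them were higher. On chromosome 8, the window from 48000001 to 49000000 went from 52.3% to 60.9% over 51 cytosines; it holds the starts of Ing2, a chromatin reader gene, and Cdkn2aip. On chromosome 3, the window from 101000001 to 102000000 went from 52.9% to 61.4% over 97 cytosines, of which 79.4% were higher, and holds the starts of Igsf3 and Slc22a15.

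Cytosines at most 100 bp apart were joined into clusters with at least 5 cytosines in both libraries, 30100 in all. A cluster was counted where its mean differed by 20 points or more and no fewer than 80% of its cytosines went that way. The Dnmt3b library was lower in 23 clusters (0.0764%) and higher in 59 (0.196%). Of the 4558 partly methylated clusters, 22 were lower and 53 higher, with a mean of 2.02 points and an SD over clusters of 7.44 points. Both strands held 2 or more cytosines in 7 lower and 39 higher clusters, and the rule of 80% largely fixes that their strands go the same way. The median lower cluster stood at 68.3% in control and 39.9% in the Dnmt3b library, and the median higher one at 38.7% and 62.8%.

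**Figure D4:**
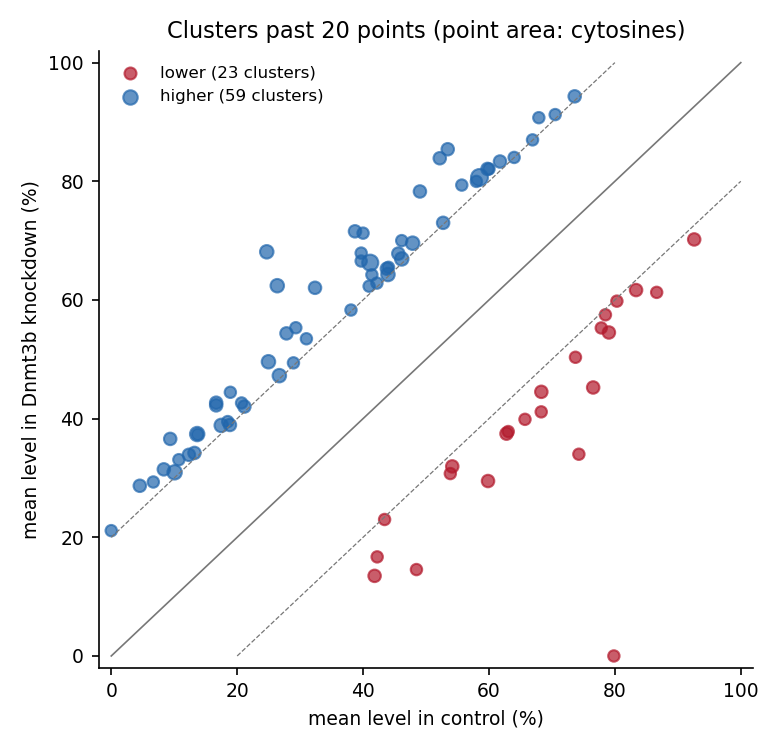
Mean level in the Dnmt3b library (vertical, percent) against control (horizontal, percent) for the clusters past 20 points, with point area in proportion to the number of cytosines; the solid line is equality and the dashed lines are 20 points from it. The 23 lower clusters have a median control level of 68.3%, and 1 of them is at 0 in the Dnmt3b library. The 59 higher clusters have a median control level of 38.7%.

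The lower cluster with the greatest difference, chr9:3258831-3258882, was at 79.8% in control and 0% in the Dnmt3b library over 5 cytosines. It was at 82.2% in the Dnmt1 library and at most 0.97% in the other 3, so control and Dnmt1 stood apart from the remaining libraries. In chr15:82949169-82949218, 18558 bp past the start of Serhl, a serine hydrolase-like gene, 5 cytosines went from 74.3% to 34.0%. Within chr10:79608174-79608221, upstream of the start of Cbarp, a calcium channel regulator gene, 5 cytosines went from 48.5% to 14.6%, and 1 of them from 90.0% to 0%.

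In chr4:155228719-155228767, 37128 bp past the start of Pusl1, 6 cytosines went from 76.5% to 45.2%. Inside Slc38a2, a glutamine transporter gene, the 6 cytosines of chr15:96524343-96524453 lie 5761 bp past the start and went from 59.9% to 29.5%. All 6 were lower, from 58.2% to 31.2% for the first on the plus strand and from 81.8% to 31.2% for the most different, on the minus strand. Its levels were 67.4% in the Tet1 and Tet2 library and 55.7% in the Dnmt3a library. The remaining lower clusters with the greatest differences were chr17:46809655-46809696 near Mea1 (41.8% to 13.5%), chr13:73146800-73146845 (68.3% to 41.1%), chr4:154360564-154360697 (65.7% to 39.9%), chr17:25034208-25034256 near Eme2 (42.2% to 16.7%) and chr12:32890573-32890622 (86.6% to 61.3%). Of the lower clusters, 5 lay within placed genes: Slc38a2, Gcc1, Sema4b, Pbx2 and Cdk2ap1. The share of all clusters within placed genes was not computed.

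The higher clusters with the greatest differences lay mostly far from placed starts, but most promoters were not placed. In chr11:50990830-50990879, 7 cytosines of the minus strand went from 24.7% to 68.1%, each of them higher by 18.9 to 67.8 points. In chr7:135396633-135396733, 7 cytosines went from 26.4% to 62.4%, by 49.7 points on the plus strand and 25.8 points on the minus strand. In chr11:64913771-64913880, 6 cytosines went from 38.7% to 71.6%, by 46.8 and 18.9 points on the strands. The first of these was read on the minus strand and the other two on both.

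Next were chr10:85938416-85938516 (53.5% to 85.4%), chr11:3388073-3388165 (52.2% to 83.9%) and chr2:60555538-60555585 (40% to 71.3%). Smaller gains were seen in chr12:87859082-87859188 (32.4% to 62.0%), chr8:37702966-37703060 (49.0% to 78.3%), chr15:97413508-97413621 (39.7% to 67.9%) and chr9:72759788-72759938, inside the length of Prtg (9.37% to 36.6%). Of the higher clusters 13 lay within placed genes, and 1 lay in a promoter, that of Pttg1. Without the share of all clusters within placed genes, which was not computed, the counts show no preference for genes or against them. Among the 55 higher clusters listed in control and in the Dnmt3b, Dnmt3a, double and Tet1 and Tet2 libraries, the Dnmt3b library was the highest in 42 and control the lowest in 3. In the 17 lower clusters listed in these 5 libraries, control was the highest in 14 and the Dnmt3b library the lowest in 6. All these clusters were picked for a difference between control and the Dnmt3b library. That choice favours these libraries as the extremes, so the ranks are no separate result. The median higher cluster stood at 50.2% in the Tet1 and Tet2 library, 31.3% in the double library and 21.99% in the Dnmt3a library. The median lower cluster stood at 58.5%, 38.5% and 37.6% in the same order, so in the Dnmt3a and double libraries it lay close to its 39.9% in the Dnmt3b library.

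Promoters were read in windows from 250 bp before to 50 bp after the start. In 4913 genes the window held at least 5 cytosines with a level in both libraries. Most were unmethylated, with means of 1.84% in control and 2.05% in the Dnmt3b library, and 115 had a mean of at least 20%. Of these 115, 66 were higher in the Dnmt3b library and 49 lower, with a median difference of 1.52 points. By 10 points or more, and with no fewer than 80% of cytosines going that way, 2 promoters were lower (0.0407%) and 15 higher (0.305%). The 86 partly methylated promoters had a mean difference of 3.19 points with an SD over promoters of 7.09 points, and 55 were higher. The 29 high ones had a mean of -0.0639 points.

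Sequences of 3 of these promoters show where the cytosines before the start lie. The values also include cytosines past the start, which the runs do not show: those 24, 34 and 35 bp past it in Tuba3b, and 8 and 44 bp past it in Slfn9. Each run is the 250 bases before the start, read 5′ to 3′ on the gene's strand, and capitals mark the CpG sites with a level in both libraries. They are the promoter with the greatest gain, the 1 germline promoter among those counted and the promoter with the greatest fall. The sequences are RefSeq's (GRCm38.p6), and the mm9 positions come from matching the listed cytosines: chr11:43239484-43239733 (minus strand) for Pttg1, chr6:145564233-145564482 (plus strand) for Tuba3b and chr11:82805333-82805582 (minus strand) for Slfn9.

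Pttg1: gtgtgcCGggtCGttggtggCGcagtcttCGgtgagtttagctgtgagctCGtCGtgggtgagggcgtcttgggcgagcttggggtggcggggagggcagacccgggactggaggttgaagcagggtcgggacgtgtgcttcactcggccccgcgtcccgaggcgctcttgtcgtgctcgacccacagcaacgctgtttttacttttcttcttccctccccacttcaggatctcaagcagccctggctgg
Tuba3b: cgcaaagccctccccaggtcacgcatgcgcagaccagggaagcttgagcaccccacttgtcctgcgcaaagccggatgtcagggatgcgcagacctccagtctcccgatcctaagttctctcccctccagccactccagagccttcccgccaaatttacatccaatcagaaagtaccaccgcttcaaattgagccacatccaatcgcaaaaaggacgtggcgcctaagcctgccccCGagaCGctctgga
Slfn9: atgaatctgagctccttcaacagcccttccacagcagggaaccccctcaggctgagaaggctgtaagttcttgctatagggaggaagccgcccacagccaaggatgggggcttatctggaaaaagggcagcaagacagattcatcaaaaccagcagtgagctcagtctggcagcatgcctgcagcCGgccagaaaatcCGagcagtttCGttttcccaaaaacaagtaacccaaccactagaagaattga

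Pttg1 encodes securin, which holds the protease separase inactive until chromosomes separate. Its 6 cytosines with levels lie 197 to 244 bp before the start, at the far end of the run, and averaged 16.7% in control and 42.2% in the Dnmt3b library. In control they ran from 5.7% to 22.9%, and in the Dnmt3b library from 6.7% to 66.7%. The cytosine 244 bp before the start, in the MspI site, went from 20% to 66.7%, and that 239 bp before it from 5.7% to 6.7%. All 6 are on the minus strand, so no second strand repeats the value. The other libraries stood at 11.7% (Tet1 and Tet2), 14.2% (Dnmt3a) and 13.5% (double), and the Dnmt3b library was the 1 that stood apart.

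Other promoters with higher levels belonged to genes of several kinds. Cck, the gene of the gut and brain peptide cholecystokinin, went from 66.0% to 82.2% over 6 cytosines, all 6 higher, by 16.6 points on the plus strand and 15.7 points on the minus strand. Smarca5, which encodes the chromatin remodelling ATPase SNF2H, went from 61.4% to 79.3% over 5 cytosines, 4 of them higher. Ntf3, the neurotrophin 3 gene, went from 5.92% to 21.4%, and Gm32465, an uncharacterised gene, from 19.8% to 38.8% over 11 cytosines, all 11 higher. Spag17, a gene of the central apparatus of the sperm tail, went from 21.1% to 34.0%, and Catsperz, a gene of the sperm calcium channel, from 24.4% to 37.0%. P2rx1, an ATP-gated ion channel gene, went from 53.7% to 65.3%, and Gm46215, another uncharacterised gene, from 3.15% to 14.4% over 17 cytosines, 16 of them higher. The Tet1 and Tet2 library was near or above the Dnmt3b library at Spag17 (45.1%), Catsperz (37.5%), P2rx1 (65.5%) and Ntf3 (21.2%). It was lower than the Dnmt3b library at Cck (78.45%), Smarca5 (74.2%), Gm32465 (25.3%) and Gm46215 (8.28%). The double library was above the Dnmt3b library at Smarca5 (82.3%) and below it at the others.

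The 2 promoters with lower levels were those of Slfn9 and Acta1. Slfn9, a member of the Schlafen family, went from 35.3% to 21.8% over 5 cytosines, all 5 lower, and 1 of them, 42 bp before the start, from 60% to 18.2%. Without that cytosine the others differed by -3.6 to -12.7 points. Acta1, the skeletal muscle actin gene, went from 71.9% to 61.5% over 6 cytosines, 5 of them lower; the strands differed by -14.0 and -6.9 points.

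Germline genes are silenced outside the germ line by promoter methylation, which makes them a standard readout of the de novo enzymes. Of the 53 genes of the germline list, 13 had a measured promoter and 9 a mean level of at least 20%. Of the 9, 8 were higher in the Dnmt3b library and 1 was lower, with a median of 5.85 points against 1.52 points over all 115 such promoters. By 10 points and 80% of cytosines, 1 of the 9 was higher and 0 lower, beside 10 and 2 of all 115 promoters at such levels. The list is short, and nothing particular to it can be read from these counts.

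Tuba3b, a testis alpha-tubulin gene, was the 1 counted. Its 5 cytosines averaged 78.1% in control and 93.0% in the Dnmt3b library and all 5 were higher, by 3.2 to 20 points. The 4 on the minus strand were higher by 17.8 points on average and the 1 on the plus strand by 3.2 points. Asz1, a piRNA pathway gene, went from 68.3% to 77.5% over 11 cytosines, by 18.5 points over 5 cytosines of the plus strand and 1.43 points over 6 of the minus strand. Slc25a31, the germ cell ADP/ATP carrier gene, went from 44.2% to 51.2% over 18 cytosines, 16 of them higher, by 7.48 and 6.51 points on the strands. The gain at Slc25a31 was thus smaller but even over both strands. In the Tet1 and Tet2 library Tuba3b stood at 85.6%, Asz1 at 73.9% and Slc25a31 at 55.0%, the last above its level in the Dnmt3b library.

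Hormad2, a gene of the meiotic chromosome axis, went from 23.0% to 39.0% over 12 cytosines but did so on 1 strand only. Its 6 plus-strand cytosines past the start averaged 25% in control and 61.9% in the Dnmt3b library. The 5 cytosines of the minus strand averaged 21.4% and 14.4%. Mael and Ddx4, of the piRNA pathway and the germ cell RNA helicase, went from 23.5% to 29.4% and from 21.1% to 25.7%, the latter with all 9 cytosines higher. In the Tet1 and Tet2 library Mael stood at 32.8% and Ddx4 at 24.2%. Hormad1 went from 36.6% to 38.8% and Tex101 from 85.8% to 87.3%. Fkbp6, a meiotic gene on both the germline and the imprinted list, went from 79.8% to 77.7%.

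**Figure D5:**
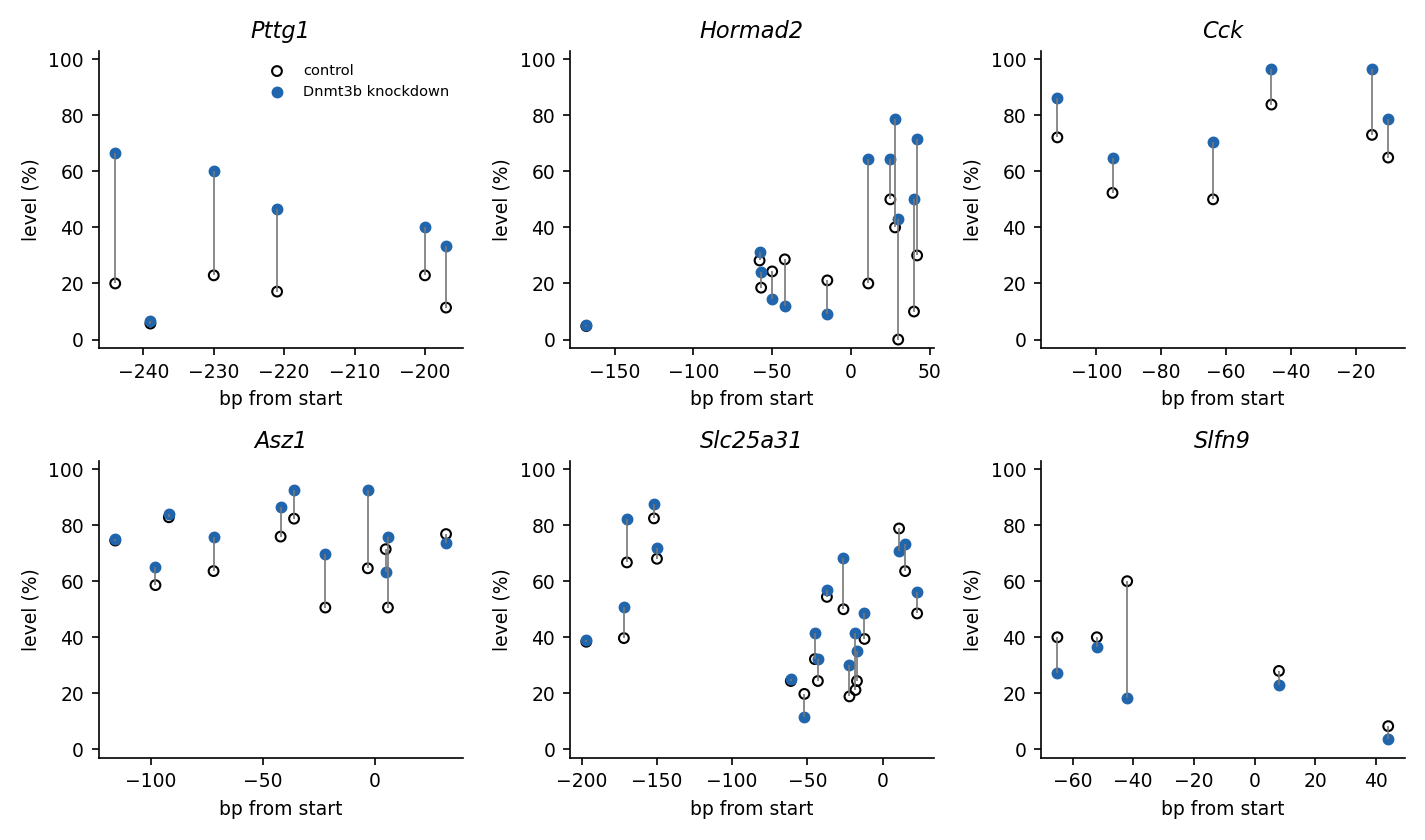
Level of each cytosine (percent) in control (open) and the Dnmt3b library (filled) against distance from the start in bp for 6 promoters, with a line joining the pair. Pttg1 and Cck are higher throughout, Hormad2 is higher past the start and lower at 3 cytosines before it, and Slfn9 is lower throughout.

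Of the 39 imprinted genes 5 were measured, and 2 had a mean of at least 20%. Commd1, whose intron holds the imprinted Zrsr1, went from 49.9% to 46.2% over 12 cytosines, 10 of them lower, and Fkbp6 is given above. In these 5 genes 0 were past 10 points. The other 8 lists (pluripotency, primed state, methylation machinery, developmental, housekeeping, trophoblast, 2-cell and tissue-restricted genes) had 29 measured genes in all, which had low levels in both libraries: the highest reached 9.57% in control and 9.92% in the Dnmt3b library (Foxa2), and differences ran from -0.50 points (Gata2) to 1.92 points (Ascl2). Sox2, a core pluripotency factor gene, was at 0% in both libraries and Fgf4, its target, at 0% and 0.157%. These levels do not check the cell type, since they are methylation and not expression.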

How the data were processed

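The study measured DNA methylation by RRBS in 6 libraries, 1 per group, and the shDnmt3b and shControl libraries were compared. Library preparation, per the labels' protocols, used MspI digestion, a TruSeq kit and EpiTect bisulfite conversion, with reads from a HiScanSQ. Tools and build named in the submitters' processing notes are Bismark 0.10.1, CASAVA 1.8 and mm9. The authors deposited a methylation fraction from 0 to 1 for each cytosine, with neither counts nor coverage. Read depth per cytosine is therefore not given and no counting interval was computed. At some named loci the levels fall on coarse steps, as a small number of reads would give. In control, the 6 plus-strand cytosines of Hormad2 past the start lay at 0%, 10%, 20%, 30%, 40% and 50%. Cytosines of 1 strand in a cluster or promoter can share their reads, so their number is not a number of separate observations. Any coverage minimum, and any removal of duplicate reads, was not given in the sources used here.

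Fractions were turned into percent and joined on chromosome, position, strand and the 5 bases of context in Python 3.11.15 (NumPy 2.4.6, pandas 2.3.3); figures used matplotlib 3.10.9. The files list 588220 cytosines for shControl and 573439 for shDnmt3b, of which 72 and 91 had no level and were left out. Positions are 1-based. With 1 library a side no test was run: means carry the SD over autosomes, and counts a fixed size. The thresholds and the SD over autosomes describe the libraries, not the conditions. The members, gene lists and thresholds were chosen with earlier results of these data known.

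No genome of the build was used. RefSeq promoter sequences (GRCm38.p6, 250 bases before to 50 after the start) were placed on mm9 by matching the spacing and context of listed cytosines to the CpG sites of each promoter on its chromosome, with at least 5 matches and at least 95% of the cytosines in the window matched. Of 32851 promoters 7299 were placed, and 99.9% of them had a neighbour with a like offset between the builds; a search on another chromosome accepted 1. Gene names cover placed promoters only. Clusters and promoters named were the 10 with the greatest fall and the 10 with the greatest gain among those past the threshold, list genes with a mean of at least 20%, and the 3 lowest and 3 highest windows; the low list genes named, and the genes read past their starts, were chosen after their values were seen. The cluster rule and class means were tested on simulated data.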

Additional observations from a re-analysis of the deposited data

How the results depend on the processing

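Of 82 values under other settings, for 16 results, 47 stayed within 1 SD over autosomes or 1.5 times the count, 34 moved and 1 changed sign by more than that. With strands merged and only CpG sites with both listed, the means were 0.00615 (all), 0.052 (partly methylated), 0.0039 (high) and -0.0066 points (low, the 1 that changed sign). These are nearly all MspI sites. At MspI sites only (chosen after seeing the data), the means were 0.175 (all), 0.055 (low), 0.560 (partly methylated), 0.070 (high) and 1.55 within 250 bp of a start; outside MspI sites only (likewise), 0.625 (all), 2.79 (partly methylated) and 0.643 (high). With classes set on the Dnmt3a library, they were 0.414 (low), 1.01 (partly methylated) and 0.027 (high), the contrast outside minus at MspI sites was 1.33 in place of 2.23 points, and r of neighbours at 6 to 20 bp was 0.381. High cytosines classed on the Tet1 and Tet2 library stood at 0.475, and low clusters counted once each at 0.275 points. Apart from the low class with strands merged, no class mean lay below 0 in any setting run.

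Counts follow their threshold by construction. Cytosines lower and higher were 25838 and 35330 at 10 points and 1613 and 2369 at 30 points. Clusters lower and higher were 226 and 619 at 10 points, 5 and 6 at 30 points, 126 and 289 with at least 3 cytosines, and 0 and 2 with at least 10. Promoters lower and higher were 0 and 1 at 20 points and 0 and 2 with at least 8 cytosines. The mean 1000 to 2000 bp past a start ran from -3.49 at MspI sites only to -0.02 points outside them, where 11 of 18 autosomes were above 0; it lay between -1.66 and -1.39 points in the other 3 settings. The contrast of 5 or more listed neighbours with none, outside MspI sites, was -1.23 ± 6.16 points and 0.414 points with classes set on the Tet1 and Tet2 library, so its sign is not settled. Leaving out a replicate was not possible with 1 library a group. No paired analysis was possible because each group has 1 library and no test was run. Unknown depth limits every single cytosine, cluster and promoter named.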

Other observations

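At a few loci the control and Dnmt1 libraries stood together, apart from the other 4. The labels do not say whether these 2 libraries share a batch of cells. On chromosomes 9 and 17, 11 cytosines were at 50% or more in control and in the Dnmt1 library, at 0% in the Dnmt3b library and at 18.2% or less in the remaining 3. At chr17:39984817-39984831 the 3 cytosines were at 92.8% to 93.8% in control and at 87.3% to 89.4% in the Dnmt1 library. At chr9:110183804-110183832 the 2 cytosines were at 61.6% and 68.7% in control, at 64.1% and 75.0% in the Dnmt1 library and at no more than 3.4% elsewhere. With control and Dnmt3b exchanged, the same rule found 0 cytosines. These loci supply 11 of the 25 cytosines that were at 50% or more in control and at 5% or less in the Dnmt3b library, and 20 cytosines were the opposite way round. Without the 11 the lower clusters numbered 22.

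Outside the autosomes the partly methylated cytosines of the X chromosome were higher by 1.17 points (57.1% to 58.3%, 1512 cytosines), and the high ones differed by -0.323 points (91.1% to 90.8%, 3393 cytosines). The 88 cytosines of the Y chromosome averaged 81.8% and 80.7%. Mitochondrial DNA, which is read as the background of incomplete conversion, stood at 0.0664% in control and 0.0312% in the Dnmt3b library over 125 cytosines.

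Cytosines with a level in 1 of the pair only were left out of every comparison. There were 58800 in control (10.2% of its autosomal cytosines), with a mean of 34.0%, and 44121 in the Dnmt3b library (7.88%), with a mean of 38.9%.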
